A study of Mus musculus with 6 samples.

Results

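Heparan sulfate 6-O-sulfation is set by the sulfotransferase genes Hs6st1, Hs6st2 and Hs6st3 and the sulfatase genes Sulf1 and Sulf2. These 5 genes were taken by their symbols, and all 5 were measured on the liver arrays, by 1 probe set each, among 909 named genes and 1246 probe sets. Heparan sulfate is a long sugar chain carried by proteoglycans of the cell surface and matrix, and its sulfate groups decide which proteins bind it. The 6-O-sulfotransferases work in the Golgi and move sulfate from the donor PAPS to the 6-O position of glucosamine units. The Sulf enzymes are secreted or held at the cell surface, where they take 6-O-sulfate off finished chains. In liver, heparan sulfate on hepatocytes helps to clear lipoprotein remnants from plasma, and a rise of hepatic Sulf2 has been described in obese diabetic mouse models.

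The data are expression arrays of total liver RNA from male mice, 3 wildtype (labelled healthy) and 3 with insulin-deficient diabetes, on an Affymetrix array of glycan-related genes. The study asked whether enzymes of glycosaminoglycan synthesis are expressed less in diabetic liver, with the turnover of plasma lipids in view. The labels name no strain, age or cause of the insulin deficiency. The labels do not state that each array came from its own animal. Where arrays shared an animal, the p-values would measure only technical spread.

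The values are log2 expression values from the authors' RMA processing. The array medians lay between 4.93 and 5.06, and the median over probe sets of the mean over arrays was 5.0. Of 9 hepatocyte markers, 7 were measured, and all 7 lay above this median. Their summed level (log2 of the summed linear values) was between 13.53 and 13.86 on the wildtype arrays and between 13.99 and 14.15 on the diabetic arrays. The sum includes Igfbp1 and Mbl2, the markers with the largest rises, and was not computed without them. It does not give the share of hepatocyte RNA. Of the 7, 4 had higher and 3 lower means in diabetic liver, with a median difference of 0.02. The single genes differed unevenly. The insulin-repressed Igfbp1 differed by 2.74 (limma adjusted p = 0.928) and Mbl2 by 1.03. The receptor subunits Asgr1 and Asgr2 differed by 0.00 and 0.02, and Igf1 and Igfals by -0.16 and -0.61. Igfbp1 read 6.26, 6.50 and 10.09 on wildtype arrays 1, 2 and 3 and 10.65, 8.90 and 11.52 on the diabetic arrays. Wildtype 3 thus lay above diabetic 2 for this gene. Of the 7 hepatocyte markers 1, the plasma lectin gene Mbl2, was called (limma adjusted p = 0.0412, and 0.142 with the replicate number as a block). Over the array 4 of 1246 probe sets (0.321%) were called. The files held no detection call, so a dim probe set may hold signal or background alone. The number of arrays limits the precision.

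The probe sets are named after 1 RefSeq transcript each, NM_015818.1 for Hs6st1, NM_015819.3 for Hs6st2, NM_015820.2 for Hs6st3, NM_172294.1 for Sulf1 and NM_028072.4 for Sulf2. All 5 carry the plain suffix, whereas 366 probe sets of the array have an s, x or a suffix. RefSeq lists 1 transcript for Hs6st1, 7 for Hs6st2, 3 for Hs6st3 and 8 each for Sulf1 and Sulf2, predicted ones included. Which of these transcripts the probes of Hs6st2, Hs6st3, Sulf1 and Sulf2 detect was not tested.

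None of the genes that add or remove 6-O-sulfate passed the test between diabetic and wildtype liver. Means were lower in diabetic liver for Hs6st1, Hs6st3, Sulf1 and Sulf2 and higher for Hs6st2, with differences between -0.22 and 0.14 on the log2 scale; after quantile normalization the mean of Sulf2 was higher, by 0.0047. Of the 5 genes, 0 were called by limma at an adjusted p under 0.05, in either direction, where 4 of 1246 probe sets (0.321%) were called, all higher in diabetic liver. At an unadjusted p under 0.05 the main limma fit gave 0 of the 5, against 37 of 1246 (2.97%). The median difference over the 5 genes was -0.06, beside 0.00 over all probe sets, and with 1 array left out it ran from -0.14 without diabetic 3 to -0.0011 without diabetic 1. The median size of the difference was 0.08, against 0.09 over all probe sets.

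**Figure D1:**
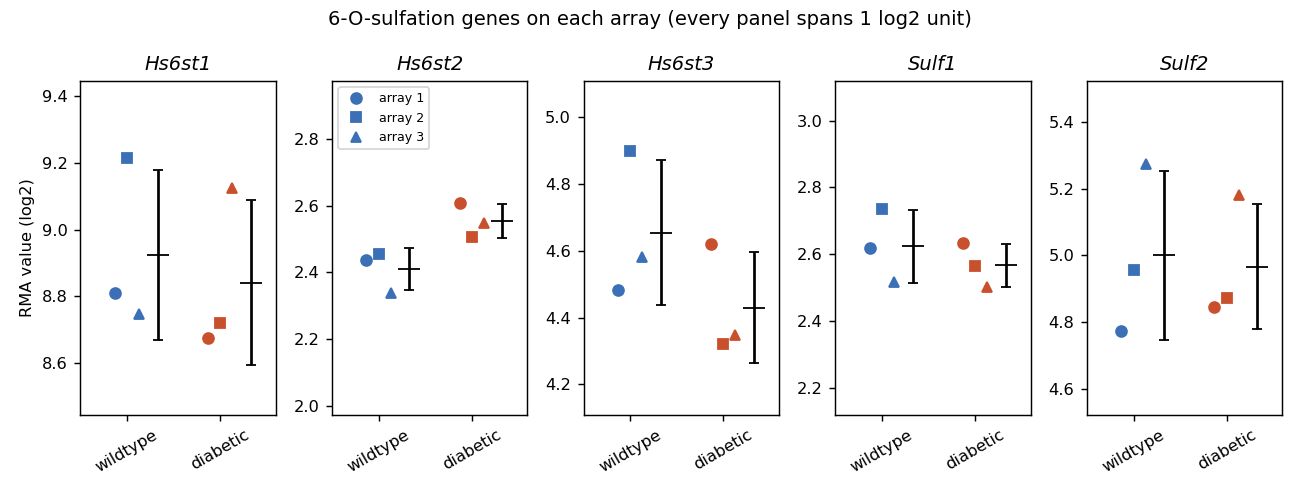
RMA values (log2) of the 5 genes on the 3 wildtype (blue) and 3 diabetic (red) arrays, with the array number as the marker shape and the mean ± SD in black. Every panel spans 1 log2 unit, and only for Hs6st2 do all diabetic arrays lie above all wildtype arrays.

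The brightest of the 5 probe sets was that of Hs6st1, which lay above 91.5% of all probe sets in its mean over the arrays. Sulf2 lay above 49.5% and Hs6st3 above 38.9%, so both were near the middle of the array. Sulf1 lay above 4.09% and Hs6st2 above 2.89%, close to the bottom. From the brightest to the dimmest the order was thus Hs6st1, Sulf2, Hs6st3, Sulf1 and Hs6st2. Hs6st1 and Sulf2 did not overlap over the 6 arrays, nor did Hs6st3 and Sulf1. The ranges of Sulf2 and Hs6st3 overlapped, although Sulf2 was the brighter on 6 of 6 arrays. Sulf1 and Hs6st2 overlapped too, and Sulf1 was the brighter on 5 of 6. This is an order of probe set signals. Probes differ in how strongly they bind, so it does not give the order of transcript amounts.

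**Figure D2:**
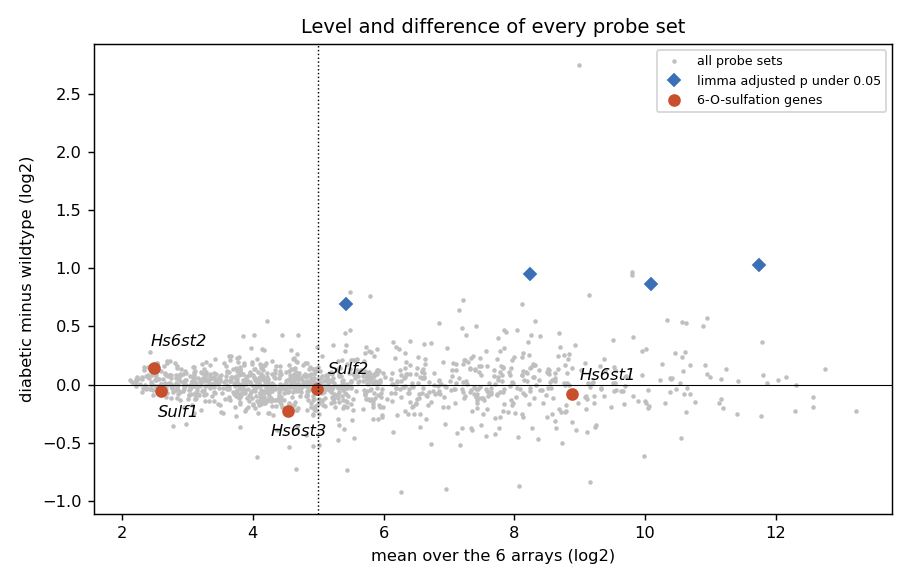
Each point is 1 of 1246 probe sets, by its mean over the 6 arrays (x axis, log2) and its difference between diabetic and wildtype (y axis, log2), with the median level as a dotted line. Of the 5 genes (red), Hs6st1 lies right of the median line, and the 4 probe sets called by limma (blue) lie above all 5.

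Hs6st1, the sulfotransferase with the strong signal, read 8.81, 9.22 and 8.75 on wildtype arrays 1, 2 and 3. It read 8.68, 8.72 and 9.12 on diabetic arrays 1, 2 and 3. In each group 1 array stood high, wildtype 2 and diabetic 3, and the other 4 arrays lay within the span from 8.68 to 8.81, so the groups overlapped. The means were 8.92 ± 0.25 in wildtype and 8.84 ± 0.25 in diabetic liver (SD, n = 3 per group). The difference was -0.08 (SE 0.17, 95% confidence interval -0.50 to 0.34), or 0.944-fold, with a limma adjusted p of 0.99 and an exact two-sided permutation p of 0.5. The smallest p that this exact permutation test can give with 3 arrays against 3 is 0.1. Without wildtype 2 the Hs6st1 difference turned to 0.06, and without diabetic 3 it was -0.23. The interval allows a change from 0.705-fold to 1.26-fold.

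Hs6st3, a sulfotransferase of the same family, showed the widest difference of the 5. It read 4.48, 4.90 and 4.58 on the wildtype arrays and 4.62, 4.32 and 4.35 on the diabetic arrays. Diabetic 2 and 3 lay below all wildtype arrays, but diabetic 1 lay above wildtype 1 and 3. The means were 4.65 ± 0.22 and 4.43 ± 0.17 (SD, n = 3 per group). The difference was -0.22 (SE 0.14, interval -0.57 to 0.12), with a limma adjusted p of 0.928 and an exact permutation p of 0.3. Without wildtype 2, the highest of the 6 values, the difference was -0.10, and without diabetic 1 it was -0.32. By size of difference Hs6st3 stood at rank 180 of 1246 probe sets.

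Hs6st2, the third sulfotransferase, was the 1 gene of the 5 with no overlap between the groups. It read 2.44, 2.45 and 2.34 on the wildtype arrays and 2.61, 2.51 and 2.55 on the diabetic arrays. The lowest diabetic value was 0.052 above the highest wildtype value. Over the array as a whole 98 of 1246 probe sets (7.87%) had groups that did not overlap, and 57 (4.57%) did so with diabetic higher. The means were 2.41 ± 0.06 and 2.55 ± 0.05 (SD, n = 3 per group), a difference of 0.14 (SE 0.08, interval -0.04 to 0.33; limma adjusted p = 0.928; exact permutation p = 0.1). Its residual SD of 0.057 was narrow: 7.3% of probe sets had a smaller one. Dim probe sets in general varied less, with a median residual SD of 0.098 among the dimmest 25% of probe sets and 0.249 among the brightest 25%. Since 36 probe sets of the array were dimmer than Hs6st2, its value may be background, and whether the transcript was present was not tested. After a shift of the arrays to a common median the groups overlapped (exact permutation p = 0.2), and quantile normalization gave a difference of 0.09 with the groups still apart.

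Sulf1, the first of the sulfatases, read 2.62, 2.74 and 2.52 on the wildtype arrays and 2.63, 2.56 and 2.50 on the diabetic arrays. The groups overlapped in the stretch from 2.52 to 2.63. Means were 2.62 ± 0.11 in wildtype and 2.57 ± 0.06 in diabetic liver (SD, n = 3 per group). The difference was -0.06 (SE 0.09, interval -0.27 to 0.15; limma adjusted p = 0.975; exact permutation p = 0.5), and it was -0.0019 without wildtype 2 and -0.11 without wildtype 3. Only 51 probe sets were dimmer, so a narrow interval here does not bound a change of the transcript. The same holds for Hs6st2.

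Sulf2, the sulfatase with the brighter probe set, read 4.77, 4.96 and 5.27 on wildtype arrays 1, 2 and 3 and 4.84, 4.87 and 5.18 on diabetic arrays 1, 2 and 3. In each group the array numbered 3 was the highest and the array numbered 1 the lowest, and the groups covered nearly the same span. Means were 5.0 ± 0.25 in wildtype and 4.97 ± 0.19 in diabetic liver (SD, n = 3 per group). The difference was -0.03 (SE 0.16, interval -0.42 to 0.35; limma adjusted p = 0.99; exact permutation p = 0.8). It was 0.10 without wildtype 3 and -0.15 without wildtype 1. The interval allows a change from 0.75-fold to 1.27-fold in these values, so it excludes a rise of 1 on the log2 scale in the probe set signal.

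Within pairs of arrays that shared a number, Sulf2 differed by 0.07, -0.08 and -0.09 (diabetic minus wildtype, numbers 1, 2 and 3). These differences are small beside the range of 0.50 over all 6 arrays. With the replicate number as a block, the SE of the Sulf2 difference was 0.08 and its interval ran from -0.25 to 0.18. For Hs6st1 the pair differences were -0.13, -0.49 and 0.38, and the blocked interval, -0.59 to 0.42, was wider than the unblocked one. Hs6st3 gave 0.14, -0.58 and -0.23, and Sulf1 gave 0.01, -0.17 and -0.01. Hs6st2 was higher in diabetic liver in all 3 pairs, by 0.17, 0.05 and 0.21, which was the case for 178 of 1246 probe sets (14.3%). The block called 0 of the 5 genes and 0 of 1246 probe sets. Its adjusted p for the 5 genes lay between 0.822 for Hs6st2 and 0.971 for Sulf2.

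**Figure D3:**
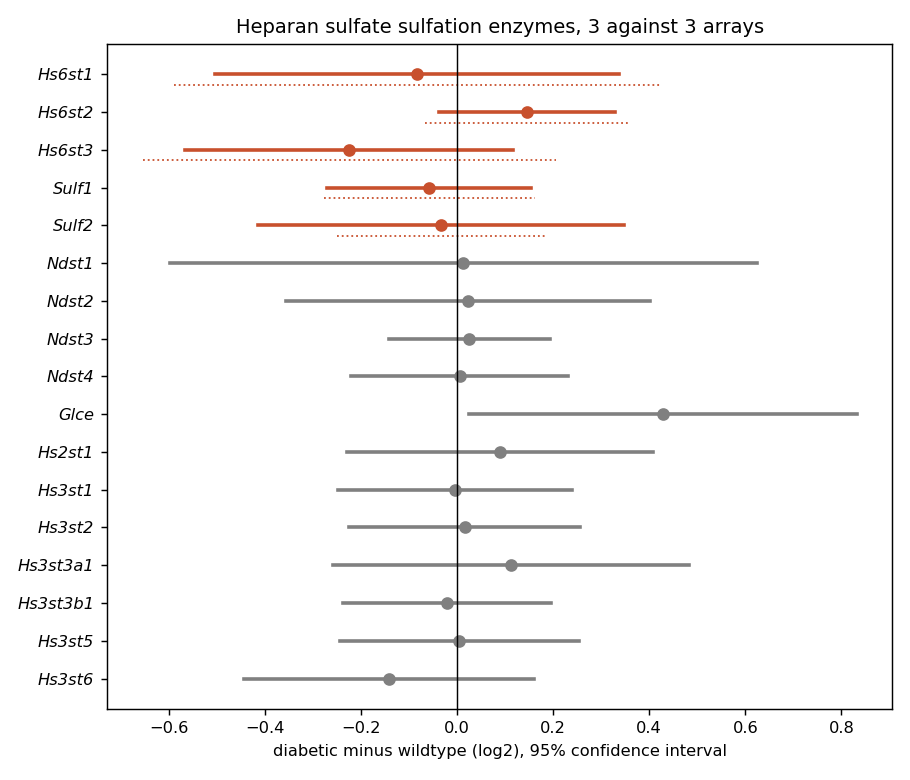
Difference between diabetic and wildtype liver (x axis, log2; point) and its 95% confidence interval (line) for the 5 genes of 6-O-sulfation (red) and 12 other enzymes of heparan sulfate sulfation and epimerisation (grey), with the interval of the fit with the replicate block dotted below the red ones. All 5 red intervals include 0, and the blocked one of Sulf2, from -0.25 to 0.18, is the one that is much shorter than its unblocked line.

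The intervals of all 5 genes excluded a change of 1 on the log2 scale either way, and those of 3 of the 5 (Hs6st2, Sulf1 and Sulf2) excluded a change of 0.5. With no detection call this describes the probe set signal alone, above all for the dim probe sets of Hs6st2 and Sulf1. Leaving out 1 array moved the differences within the spans of -0.23 to 0.06 for Hs6st1, 0.11 to 0.17 for Hs6st2, -0.32 to -0.10 for Hs6st3, -0.11 to -0.0019 for Sulf1 and -0.15 to 0.10 for Sulf2. The sign held in each of these refits for Hs6st2, Hs6st3 and Sulf1, and turned for Hs6st1 in 1 and for Sulf2 in 3 of them.

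**Figure D4:**
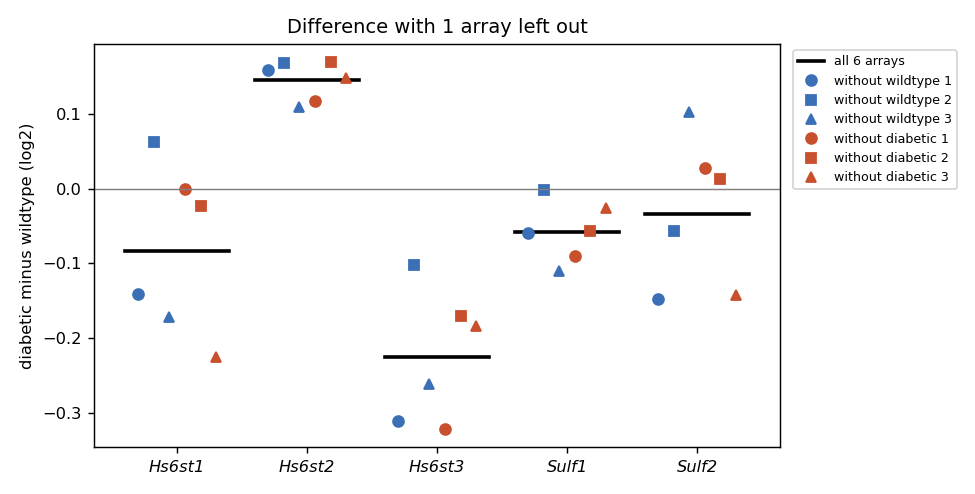
Difference between diabetic and wildtype (y axis, log2) for each of the 5 genes with all 6 arrays (black line) and with 1 array left out (symbols by the array that was left out). Without wildtype 2 the Hs6st1 difference rises from -0.08 to 0.06, and without wildtype 3 that of Sulf2 rises from -0.03 to 0.10.

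Wildtype 2 carried the highest value of the wildtype arrays for 4 of the 5 genes, where that array was the highest of its group for 42.5% of all probe sets. It was the highest of all 6 arrays for 3 of the 5 (Hs6st1, Hs6st3 and Sulf1), against 25.4% of all probe sets.

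The balance of removal and addition was described by the mean of Sulf1 and Sulf2 minus the mean of the sulfotransferases on each array, a log2 ratio of signals with no test. It was -1.55, -1.68 and -1.33 on the wildtype arrays and -1.56, -1.46 and -1.50 on the diabetic arrays. The diabetic values lay inside the wildtype span. The group means were -1.52 ± 0.18 and -1.51 ± 0.05 (SD, n = 3 per group), a change of 0.01, which was -0.07 without wildtype 2 and 0.10 without wildtype 3. Sulf1 and Hs6st2, whose signal may be background, enter this mean, so it may not show a change of the transcripts. For Sulf2 minus Hs6st1 alone, chosen after the values were seen because these are the brightest sulfatase and sulfotransferase, the change was 0.05, with means of -3.92 ± 0.41 and -3.87 ± 0.06, and it was -0.12 without wildtype 2 and 0.27 without wildtype 3. The sign of neither balance thus held with 1 array left out.

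Removing the group means changed the likeness among the 5 genes themselves mainly in pairs with Hs6st2. Over the 10 pairs of genes, Pearson's r over the 6 arrays ran from -0.60 for Sulf1 with Sulf2 to 0.80 for Hs6st3 with Sulf1. For deviations from the group means these pairs gave -0.68 and 0.77, and the highest pair was then Hs6st2 with Sulf1, at 0.81 against 0.10 before. Hs6st2 and Sulf1 lay above only 2.89% and 4.09% of all probe sets, so their values may be background. How high such values run for other pairs of genes was not tested. The sulfotransferases Hs6st1 and Hs6st3 gave 0.37 (0.32 within groups), Hs6st1 and Hs6st2 gave -0.01 (0.30), and Hs6st2 and Hs6st3 gave -0.21, which turned to 0.62 within groups. Sulf2 was negatively related to Hs6st2 both ways, at -0.41 and -0.61. These are descriptions over arrays that share group and replicate number, with no test.

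The genes with the pattern nearest to each member were found by Pearson's r over the 6 arrays among the other 908 named genes. For Hs6st1 they were Cdhr5, a cadherin-related membrane protein (r = 0.98), Igf2r, the mannose 6-phosphate receptor (0.97), and the heparin-binding growth factor Vegfa (0.94). All 3 had their highest values on wildtype 2 and diabetic 3, as Hs6st1 did. For Sulf2 they were the cytosolic sulfotransferase Sult1c1 (0.99), the secreted protein Igfbp7 (0.98) and the mannose receptor Mrc1 (0.95). Igfbp7 read 9.27 and 9.13 on the arrays numbered 3 and between 7.89 and 8.32 on the other 4. Mrc1 read 7.14 and 7.28 on the arrays numbered 3 and between 6.54 and 6.82 on the others.

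**Figure D5:**
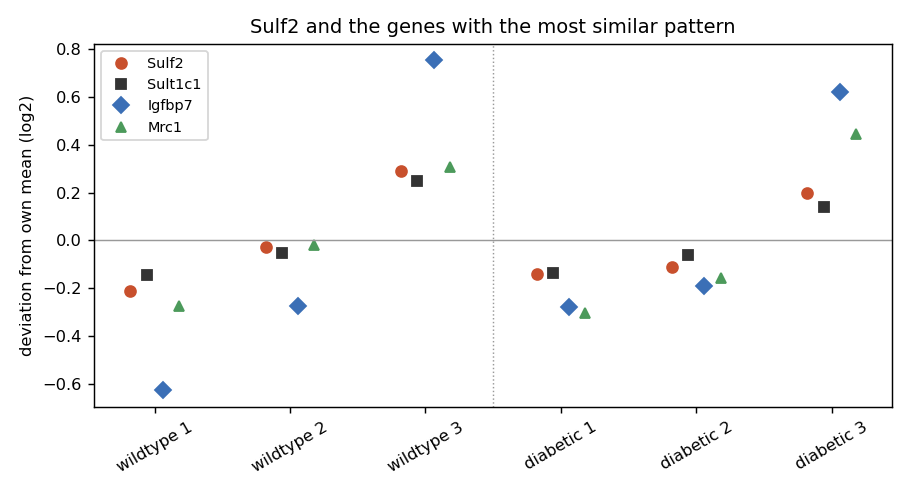
Deviation of Sulf2, Sult1c1, Igfbp7 and Mrc1 from their own mean over the 6 arrays (y axis, log2) on each array (x axis). All 4 genes lie above their means on wildtype 3 and diabetic 3 and below them on the other arrays.

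Some marker genes of liver cells had the same arrays highest as Sulf2. Over the array as a whole, 131 of 1246 probe sets (10.5%) had the array numbered 3 as the highest of both groups. Among the markers this held for 4 of 5 macrophage genes, 3 of 6 stellate cell and fibroblast genes, 2 of 4 endothelial genes, 2 of 7 hepatocyte genes and 0 of 3 lymphocyte genes. The lists as fixed held 9 macrophage, 10 stellate cell and fibroblast, 12 endothelial and 9 lymphocyte markers, and the rest of them were not measured. Mrc1, named above for its likeness to Sulf2, is 1 of the macrophage genes, and Clec4f, a marker of Kupffer cells, is the 1 that did not follow, with 6.05, 5.81 and 5.91 on the wildtype arrays and 5.71, 6.07 and 6.03 on the diabetic arrays.

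As summed levels, which the brightest genes of a list dominate, the macrophage markers (3 of 5 above the array median) gave 8.16, 8.18 and 8.52 on the wildtype arrays and 8.01, 8.18 and 8.87 on the diabetic arrays. Stellate cell and fibroblast markers (3 of 6 above the median) gave 8.41, 8.15 and 9.10 in wildtype and 8.17, 8.40 and 8.64 in diabetic liver. Endothelial markers (3 of 4) gave 7.39, 7.57 and 7.59, and 7.22, 7.34 and 7.53. The hepatocyte sums were also highest on the arrays numbered 3, at 13.53, 13.81 and 13.86, and 14.00, 13.99 and 14.15. Of the 7 single hepatocyte markers, however, only 2, Igfbp1 and Mbl1, were highest on both of these arrays. Igfbp1 read 10.09 and 11.52 there, and the sum without Igfbp1 was not computed. The lymphocyte sums (1 of 3 above the median) were highest on the arrays numbered 2, at 6.32, 6.42 and 6.41, and 6.29, 6.52 and 6.50. The part of any cell type in the spread of Sulf2 was not tested. In bulk tissue fewer cells of a type and less RNA per cell cannot be told apart. Of the 18 markers of cells other than hepatocytes, 0 were called, beside 4 of 1246 probe sets (0.321%) over the array. With so few markers and so low a share, this count says little.

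The dimmer genes had other neighbours. Sulf1 was most like Il18rap, an interleukin receptor subunit (0.99), Il11ra2, an interleukin receptor gene (0.95), and Dad1, a subunit of the oligosaccharyltransferase (0.95). Hs6st2 was most like Slc35a5, of the nucleotide sugar transporter family (0.93), the lysosomal acid lipase Lipa (0.92) and the lysosomal sialidase Neu1 (0.92). Hs6st3 was most like Gps2 (0.90), the cytokine gene Il4 (0.89) and Chst8, a sulfotransferase of N-glycans (0.89). With 6 arrays such values are common: the best r of a gene had a median of 0.97 over all 909 genes. Of these genes, 98.7% had a closer neighbour than Hs6st3, 93.6% than Hs6st2, 36.5% than Hs6st1, 19.6% than Sulf1 and 17.6% than Sulf2.

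The other enzymes that modify the chain, of which Ndst1, Glce and Hs2st1 act before 6-O-sulfation and the 3-O-sulfotransferases after it, were not called either. Among the 12 other measured enzymes that sulfate or epimerise heparan sulfate, 0 were called, beside 4 of 1246 probe sets (0.321%). The mean was higher in diabetic liver for 9 and lower for 3, with a median difference of 0.01. Without wildtype 3 these counts were 5 and 7, with a median of -0.04. Ndst1, which replaces acetyl groups of the chain with sulfate, was 9.19 ± 0.53 in wildtype and 9.20 ± 0.09 in diabetic liver (SD, n = 3 per group), a difference of 0.01 that ran from -0.24 without wildtype 3 to 0.29 without wildtype 2. Glce, the epimerase that makes iduronic acid, differed by 0.43 (limma adjusted p = 0.928). Hs2st1, the 2-O-sulfotransferase, differed by 0.09, and by -0.03 without wildtype 3. The 3-O-sulfotransferases Hs3st6 and Hs3st3a1 differed by -0.14 (-0.26 to -0.06 with 1 array left out) and 0.11 (0.01 to 0.27).

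The sulfate donor was covered by 3 genes, of which 1 was called, beside 4 of 1246 probe sets (0.321%) over the array. Papss2, a PAPS synthase and thus a supplier of the sulfotransferases, was 9.66 ± 0.14 in wildtype and 10.52 ± 0.08 in diabetic liver (SD, n = 3 per group; limma adjusted p = 0.0412). With the replicate block the limma adjusted p of Papss2 was 0.215. It was between 0.0568 and 0.323 with any 1 array left out, and 0.121 with the trended, robust form of eBayes. In the ordinary linear model the adjusted p was 0.485. The call held in none of these. The difference itself stayed between 0.79 and 0.93 with 1 array left out. The groups did not overlap, with diabetic higher, as for 57 of 1246 probe sets (4.57%). The second PAPS synthase gene, Papss1, gave -0.13 (-0.24 to -0.05 with 1 array left out), and Slc35b3, which carries PAPS into the Golgi, gave 0.08, which was -0.04 without diabetic 3. The Papss2 difference was 0.87 on the log2 scale, against -0.08, 0.14 and -0.22 for Hs6st1, Hs6st2 and Hs6st3.

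Of 10 measured genes that start and extend the chain, 0 were called, beside 4 of 1246 probe sets (0.321%). Lower means were seen for 9 and a higher mean for 1, with a median difference of -0.11. Without wildtype 2 the counts were 6 lower and 4 higher, with a median of -0.0084. Xylt1, which adds the first xylose, B4galt7, a linkage galactosyltransferase, and Extl1, of the exostosin family, differed by -0.16, -0.15 and -0.28. With 1 array left out these ran from -0.21 to -0.08, from -0.25 to -0.07 and from -0.42 to -0.01. Of 6 genes of heparan sulfate degradation, 4 had lower and 2 higher means and 0 were called; without wildtype 2 it was 3 each. The values were -0.25 for Sgsh and -0.48 for Idua, lysosomal enzymes, and -0.13 for Hpse2, a relative of heparanase. With 1 array left out they ran from -0.39 to -0.11 for Sgsh, from -0.87 (without wildtype 3, limma adjusted p = 0.0568) to -0.26 for Idua and from -0.19 to -0.07 for Hpse2.

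The core proteins that carry the chains gave 8 lower and 4 higher means in 12 genes, with a median difference of -0.04. Without wildtype 2 it was 6 of each. Of these 12 genes 0 were called, beside 4 of 1246 probe sets (0.321%). The membrane proteoglycans Gpc4, Sdc1 and Sdc4 differed by -0.34 (-0.22 without wildtype 1), 0.44 (0.67 without wildtype 2) and -0.12. Of 23 measured signals and receptors that bind heparan sulfate or act with it, 13 had lower and 10 higher means and 0 were called; these counts were 16 and 7 without diabetic 3 and 10 and 13 without diabetic 1. Shh, a secreted developmental signal, differed by -0.73 (limma adjusted p = 0.485), and by -0.18 at its other probe set. The receptor Fgfr2 differed by 0.40 (0.25 without diabetic 3) and the growth factor gene Hgf by 0.18 (limma adjusted p = 0.928 for each).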

How the data were processed

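The deposited table gave log2 expression values for 1246 probe sets on 6 arrays, made by the authors with RMA, per the submitters' processing notes. RMA corrects background, normalizes between arrays and summarises probes; neither version nor settings were stated. Of 984 probe sets with a RefSeq accession, 963 were named through a RefSeq gene table (GRCm38.p6, names only). A gene with several probe sets was represented by the one with the highest mean. Groups and replicate numbers came from the sample titles. Diabetic was compared with wildtype over all probe sets by limma 3.58.1 (lmFit, eBayes; R 4.3.3; 4 residual and 2.44 prior degrees of freedom) with Benjamini-Hochberg adjustment, and for single genes by an exact permutation test (scipy 1.17.1). The limma script was tested on simulated data.

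The genes and lists were chosen with earlier results of these data known. Named genes were the 5 genes, up to 3 per pathway list by smallest p, 5 set genes (Papss1, Papss2, Ndst1, Glce and Hs2st1), and the 3 nearest in pattern to each of the 5. Cholangiocyte markers were fixed as a list, of which 0 of 5 were measured.

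Same-numbered arrays deviated together from their group means, with correlations over all probe sets of 0.397, 0.138 and 0.162 for numbers 1, 2 and 3. These exceed the limit of 0.1 set for treating the numbers as pairs, although the labels do not say what a number stands for. The main limma fit, the refits with 1 array left out and the exact permutation test did not use the pairs. Only the replicate block did. Alternatives were a median shift, quantile normalization, leaving out dim probe sets, eBayes with trend and robust, array weights, the replicate block, no moderation, and leaving out each array.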

Additional observations from a re-analysis of the deposited data

How the results depend on the processing

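Over the 12 or 13 alternatives run for each gene, 0 of the 5 genes were called, with adjusted p between 0.761 and 0.999. The unadjusted p of Hs6st2 was 0.103 in the main limma fit. It was 0.038 with the trended, robust form of eBayes and 0.0365 in the ordinary linear model. How many probe sets fell under 0.05 in these 2 alternatives is not given here. The sign of the Hs6st2, Hs6st3 and Sulf1 differences held in all of them. Leaving out 1 array gave -0.225 to 0.0624 for Hs6st1, 0.11 to 0.17 for Hs6st2, -0.32 to -0.10 for Hs6st3, -0.11 to -0.0019 for Sulf1 and -0.15 to 0.10 for Sulf2. Quantile normalization turned Sulf2 to 0.0047, and the cause was not tested. The count of 4 called probe sets fell to 0 with the replicate block, in the ordinary linear model and with the trended, robust form of eBayes, and to between 0 and 1 with 1 array left out. The replicate block changed no other call. The median shift took the count of the 5 genes without overlap from 1 to 0; this alternative was chosen after the values were seen. Among pathway genes, leaving out 1 array gave -0.24 to 0.29 for Ndst1, -0.0303 to 0.20 for Hs2st1 and -0.0414 to 0.18 for Slc35b3, each with a turned sign. The change of the Sulf minus Hs6st balance ran from -0.07 to 0.10 and that of Sulf2 minus Hs6st1 from -0.12 to 0.27. Hs6st2, Hs6st3, Sulf1 and Sulf2 fell below the limit of the dim filter and have no value there, and no gene of the 5 had another probe set to try. Signal over background limits Hs6st2 and Sulf1 most. With no detection call, whether Hs6st3 and Sulf2 lay above background was not tested.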
